A study of Temora longicornis with 12 samples.

Results

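Adult copepods that had been warmed to 17 °C and returned to 14 °C for their last 24 h (recovery group) were compared with animals held at 14 °C throughout (control group). The comparison rested on 6 of the 12 libraries of the series, 3 from each group, chosen by the treatment in the labels. Temora longicornis is a small planktonic crustacean of coastal seas, and RNA was extracted from whole bodies of adults, with no strain, allele or agent named in the labels. Recovery vessels were brought to 17 °C over 24 h, kept there for 3 days and then moved to 14 °C, so both groups shared the temperature of the final 24 h and the total exposure of 120 h. All vessels were dark and aerated. Of the 4 vessels kept per group, 3 were sequenced. Within this pair of groups, the earlier warmth and the later drop in temperature cannot be told apart. The acute group (14 °C, then 17 °C for the last 24 h) and the sustained group (17 °C to the end) contribute to the estimate of spread, which all groups share, and are set beside single transcripts as values.

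Copepods cannot regulate their body temperature, so water temperature sets the pace of their metabolism, feeding and egg production. Animals meet warming with chaperones of the heat shock families, which refold damaged proteins, and with changes in energy metabolism. When the stress ends, such responses are generally wound down, and transcripts that stay displaced after a return to the earlier temperature are of interest as a lasting trace of it. The deposited table holds 44985 assembled transcripts with identifiers of the Trinity assembler, which name a cluster, a component (c), a gene (g) and a transcript of that gene (i). The table pairs none of them with a gene name, so no function, position or sequence is given here and heat shock or other gene families could not be looked up. The whole-body origin could likewise not be checked against marker genes.

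The 6 libraries held 11582848 to 32504862 counts, the lowest in control replicate 2 and the highest in recovery replicate 2. Control replicate 2 stood apart. Its Spearman correlation with the other control libraries was 0.822 to 0.825, and with the recovery libraries 0.802 to 0.833, across 40943 transcripts with enough counts to be tested. Every correlation among the other 5 libraries lay between 0.907 and 0.943. Control replicate 2 was the highest or the lowest of the 6 libraries for 52.4% of transcripts, against 20.7% to 39% for each of the others. It lay more than 4-fold below all 5 others for 931 transcripts and more than 4-fold above them for 76, whereas each of the others lay that far outside for 2 to 19 transcripts. The main counts and the named transcripts are therefore given with and without it. The first principal component of the 6 libraries held 50.2% of the variance and set control replicate 2 apart. The second, with 16.4%, ran from recovery replicate 1 to recovery replicate 3 and placed all 3 control libraries and recovery replicate 2 between them.

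**Figure D1:**
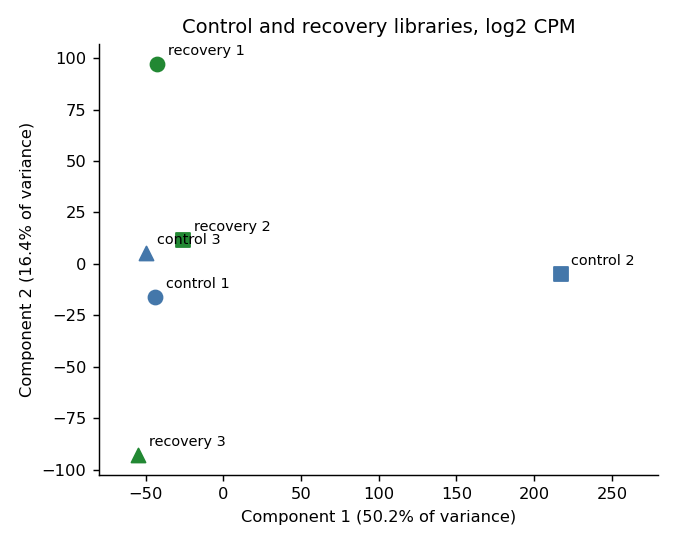
Each point is 1 library placed by the first 2 principal components of log2 CPM over 40943 transcripts, with blue for control, green for recovery and the marker shape for the replicate. Control replicate 2 lies alone on the right, and along the vertical axis the control libraries lie between recovery replicates 1 and 3.

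Libraries of the recovery group were no closer to each other than to control replicates 1 and 3. The root mean square distance in log2 CPM (CPM, the count relative to the scaled library total) was 0.866 to 0.95 between recovery libraries and 0.743 between control replicates 1 and 3. Recovery libraries were 0.766 to 0.868 from control replicates 1 and 3, and 1.33 to 1.44 from control replicate 2. Control replicate 2 was as far from its own group, at 1.38 and 1.39 from the other control libraries. It thus raises the mean distance within groups and the mean distance between them. The mean distance between groups minus the mean distance within them was -0.0324 (exact permutation p = 1, one-sided), and -0.0533 without control replicate 2 (exact permutation p = 0.9). With either set of libraries the smallest p possible was 0.1. The median coefficient of variation over transcripts was 28.8% in the recovery group and 32.6% in the control group, and 17% for control replicates 1 and 3 alone, where 2 libraries give a poor estimate.

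The main comparison asked what still differed between warmed and unwarmed animals after a day back at the control temperature. No transcript passed the quasi-likelihood test of edgeR (0 of 40943, or 0%, at a Benjamini-Hochberg adjusted p under 0.05). At an unadjusted p under 0.05, 596 transcripts were higher (1.46%) and 706 lower (1.72%) in the recovery group, 1302 in all. Evenly spread p-values would give 2047.2. The median log2 difference over all transcripts was 0.0193, and the median size of a difference, in either direction, was 1.21-fold. Estimates above 2-fold were found for 1637 transcripts on the higher side and 1505 on the lower side, of which 1306 and 1042 had a mean under 1 CPM. A single transcript was called by DESeq2 and another by the exact test of edgeR, and 0 by limma voom; these tools gave 1525, 1389 and 1438 transcripts at an unadjusted p under 0.05. The count of 1302 was 2146 without control replicate 3 and 678 when only the 6 libraries were fitted. It was 3549 when libraries were scaled by their totals alone, with 65 higher and 3484 lower.

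That last setting moved all transcripts together. With totals alone the median log2 difference over all transcripts was -0.35 and 18.5% of transcripts were higher in the recovery group, against 51.7% with TMM scaling and 50.7% with RLE scaling. The libraries differed in the share of counts taken by 1 transcript, TRINITY_DN157064_c6_g3_i1, which had the highest mean of all. It took 53.1%, 47.2% and 19.3% of the recovery totals and 26%, 25.2% and 0.00387% of the control totals, in order of replicate. The ranges overlapped, and the mean share was 22.8 percentage points higher in the recovery group (two-sided exact permutation p = 0.3, where 0.1 is the lowest that 3 against 3 libraries allow). The difference was 26.9 points without control replicate 2 (exact permutation p = 0.3). Without recovery replicate 3 the difference was 33.1 points (exact permutation p = 0.1) and without control replicate 3 it was 14.3 points (p = 0.4, exact permutation). Directions are therefore given relative to the TMM scaling.

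Leaving out control replicate 2 changed which transcripts stood out more than how many. The test then called 0 of 42640 transcripts, with 730 higher (1.71%) and 456 lower (1.07%) at an unadjusted p under 0.05. The share on the higher side was 61.6%, against 45.8% with all libraries. Of the 1302 transcripts under 0.05 with all libraries, 589 were also under 0.05 without control replicate 2, each in the same direction. These were 45.2% of the first list and 49.7% of the second, and 341 were higher and 248 lower. The direction of the estimate turned for 9454 of 40943 transcripts (23.1%). It turned for 192 of the 3142 whose estimate exceeded 2-fold. The lowest adjusted p was 0.727, against 1 with all libraries. In that fit the biological coefficient of variation was 33.3% in place of 37%. The median standard error of a log2 difference was 0.437 in place of 0.427. The control mean then came from 2 libraries, and the set of tested transcripts was also larger. What part each had in the standard error was not tested.

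**Figure D2:**
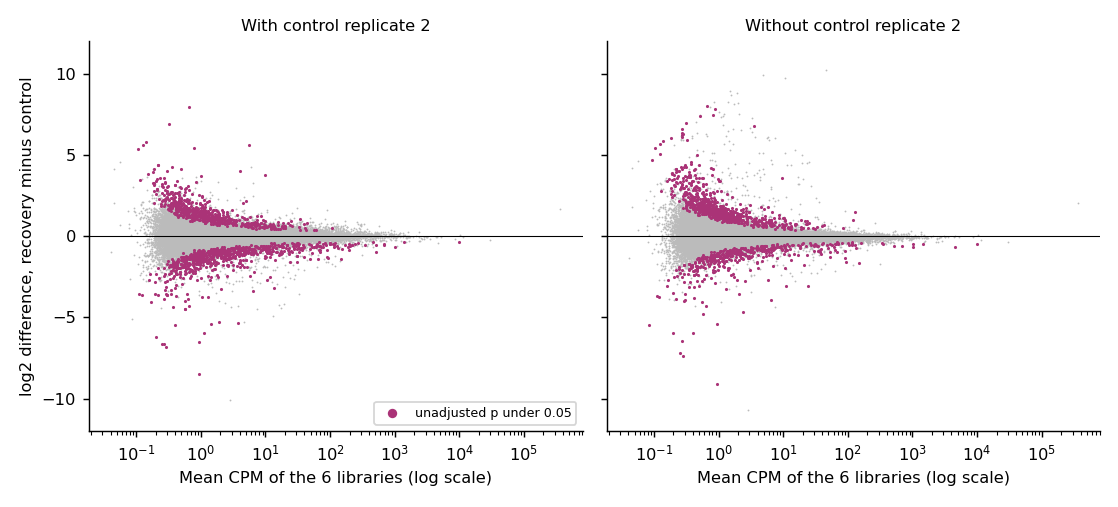
Each point is 1 transcript, with its mean CPM over the 6 libraries (log scale) on the horizontal axis and its log2 difference, recovery minus control, on the vertical axis, fitted with all libraries (left) and without control replicate 2 (right). Purple points have an unadjusted p under 0.05, 1302 on the left; on the right, a cloud of grey points lies above 3 on the log2 scale and is much thinner on the left.

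How small a difference could have been seen depended on the level. Among 13057 transcripts under 1 CPM, 0.797% had a 95% interval inside 2-fold in either direction and 51.5% had one inside 4-fold. Among 18951 transcripts from 1 to 10 CPM these shares were 39.3% and 90.9%. From 10 to 100 CPM (7801 transcripts) they reached 83.1% and 95.7%, from 100 to 1000 CPM (1068 transcripts) 85.5% and 96.3%, and for the 66 transcripts at 1000 CPM or more 86.4% and 97%. Most intervals at 10 CPM or more thus excluded a change over 2-fold. Below 1 CPM almost none did. Counting error and the spread between vessels both enter these intervals, and their parts were not separated. The shares within 2-fold were 90.7%, 90.6% and 89.4% in the upper 3 classes and 0.253% under 1 CPM when control replicate 2 was left out. At 10 CPM or more (8935 transcripts), 45 were higher and 149 lower at an unadjusted p under 0.05, and 38 and 81 without control replicate 2. Below 10 CPM (32008 transcripts) the counts were 551 and 557, and 650 and 354 without it. With all libraries these were 3.99% of transcripts under 1 CPM, 3.1% from 1 to 10 CPM and 2.14% to 4.55% in the upper 3 classes. Each share was below the 0.05 that evenly spread p-values would give.

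**Figure D3:**
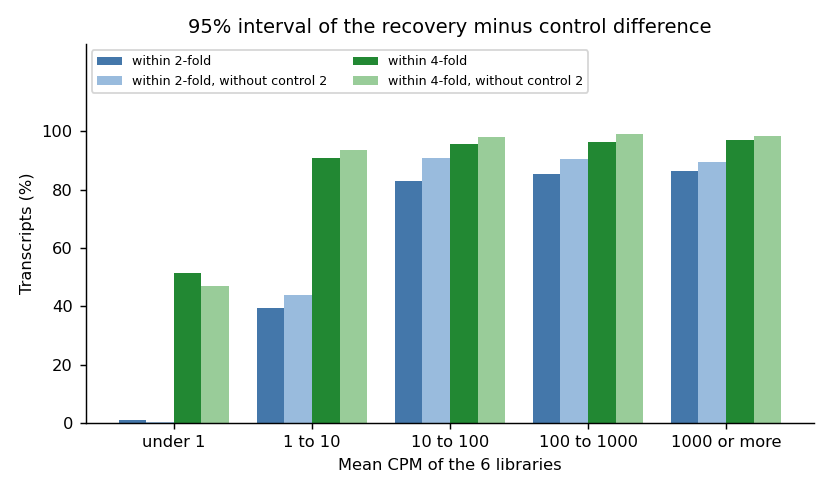
Bars show the percentage of transcripts whose 95% interval of the recovery minus control difference lay within 2-fold (blue) or 4-fold (green) in either direction, by mean CPM of the 6 libraries, with paler bars for the fit without control replicate 2. The share within 2-fold rises from 0.797% under 1 CPM to 83.1% between 10 and 100 CPM and changes little above that.

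The levels of the 2 groups seldom separated. All 3 recovery libraries lay above all 3 control libraries for 1429 of 40943 transcripts (3.49%) and below them for 1419 (3.47%). The gap between the nearest libraries exceeded 2-fold for 1 of the former and 2 of the latter, after adding 0.5 CPM, and exceeded 4-fold for 0. With control replicate 2 left out, the groups separated for 2946 transcripts on the higher side (7.2%) and 2867 on the lower side (7%), where fewer libraries make separation easier. Of those 2946, control replicate 2 lay within the range of the recovery libraries for 767 and above them for 750. Of those 2867, it lay within that range for 658 and below it for 790. With library totals alone, 146 transcripts separated on the higher side (0.357%) and 5689 on the lower side (13.9%).

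Transcripts were named by a rule that required a mean of at least 1 CPM and an unadjusted p under 0.05 with and without control replicate 2, which 160 transcripts met on the higher side and 153 on the lower side. The 2 with the smallest p-values were taken on each side, which favours large estimates. TRINITY_DN183058_c2_g2_i1 was at 33.2, 24.7 and 35.7 CPM in control libraries and 55.8, 61.1 and 50.2 CPM in recovery libraries. The groups did not overlap, and the log2 difference was 0.83 ± 0.17 (SE, n = 3 per group; edgeR adjusted p = 1), or 0.69 without control replicate 2. It was at 44.9 ± 6.38 CPM (SD, n = 3) in the acute group and 38.3 ± 2.56 CPM in the sustained group, both between control and recovery. The other tested transcript of the same Trinity gene had a log2 difference of 0.56.

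TRINITY_DN181176_c0_g8_i1 was at 3.43, 5.19 and 6.62 CPM in control libraries and 12.2, 15.4 and 9.15 CPM in recovery libraries. The highest control library was below the lowest recovery library, with a log2 difference of 1.27 ± 0.33 (SE; edgeR adjusted p = 1), or 1.28 with control replicate 2 left out. The acute group was at 9.03 ± 2.35 CPM (SD, n = 3) and the sustained group at 8.97 ± 3.4 CPM, with libraries on both sides of the gap between control and recovery. The median log2 difference of the 3 other tested transcripts of its component went the other way, at -0.582, with 0 at an unadjusted p under 0.05. TRINITY_DN192840_c6_g14_i1 was at 5.55, 6.4 and 5.64 CPM in control libraries and 1.92, 1.41 and 2.34 CPM in recovery libraries. Control libraries were close together and all above the recovery libraries, with a log2 difference of -1.62 ± 0.38 (SE; edgeR adjusted p = 1), or -1.56 with control replicate 2 left out. Its sustained libraries, at 3.03, 1.68 and 5.79 CPM, spanned nearly the whole range between the groups. The 1 other tested transcript of its component had a log2 difference of -0.218.

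TRINITY_DN177899_c6_g6_i1 was at 5.66, 2.43 and 0.739 CPM in control libraries and 0.938, 0.386 and 0.396 CPM in recovery libraries. Here the groups overlapped, since control replicate 3 lay below recovery replicate 1. The log2 difference was -2.38 ± 0.60 (SE; edgeR adjusted p = 1), or -2.50 with control replicate 2 left out. It was -1.43 without control replicate 1, the highest library. The other tested transcript of its Trinity gene had a log2 difference of -1.95. Both transcripts of that gene were thus lower on average, neither past the test. The sustained libraries, at 1.16, 0.756 and 0.898 CPM, were near the recovery libraries, and the acute libraries were at 1.67 to 2.14 CPM.

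A further pair was singled out after their values were seen, because their groups were separated by a gap of over 2-fold, as were those of TRINITY_DN192840_c6_g14_i1. TRINITY_DN171543_c3_g2_i3 was at 1.12, 0.81 and 1.95 CPM in control libraries and 4.98, 21.5 and 27.9 CPM in recovery libraries. Recovery replicate 1 was well below the other two recovery libraries, and all 3 exceeded the controls, with a log2 difference of 3.77 ± 1.00 (SE; edgeR adjusted p = 1) and 3.56 without control replicate 2. Sustained libraries were at 14.7, 21.7 and 12.8 CPM, and acute libraries at 5.5, 16.2 and 0.877 CPM. All 6 libraries of the recovery and sustained groups were thus above the 3 controls, while 1 acute library was at the control level. The other tested transcript of this Trinity gene had a log2 difference of 0.21.

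TRINITY_DN183421_c3_g2_i1 had 34, 16 and 27 counts in control animals and 2, 1 and 1 in recovery animals. In CPM these were 1.36, 1.3 and 1.05 against 0.0987, 0.0429 and 0.036. The recovery to control ratio over the summed counts was 0.0459, with an exact 95% interval of 0.0122 to 0.122 that covers counting error only. It did not pass the quasi-likelihood test (edgeR adjusted p = 1 with and without control replicate 2), whereas the exact test of edgeR called it (adjusted p = 0.025). Its sustained libraries, at 0.625 to 0.808 CPM, lay between the groups. Acute libraries were at 1.11, 0.73 and 0.0877 CPM. The first of these lay within the range of the control libraries and the last within that of the recovery libraries.

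**Figure D4:**
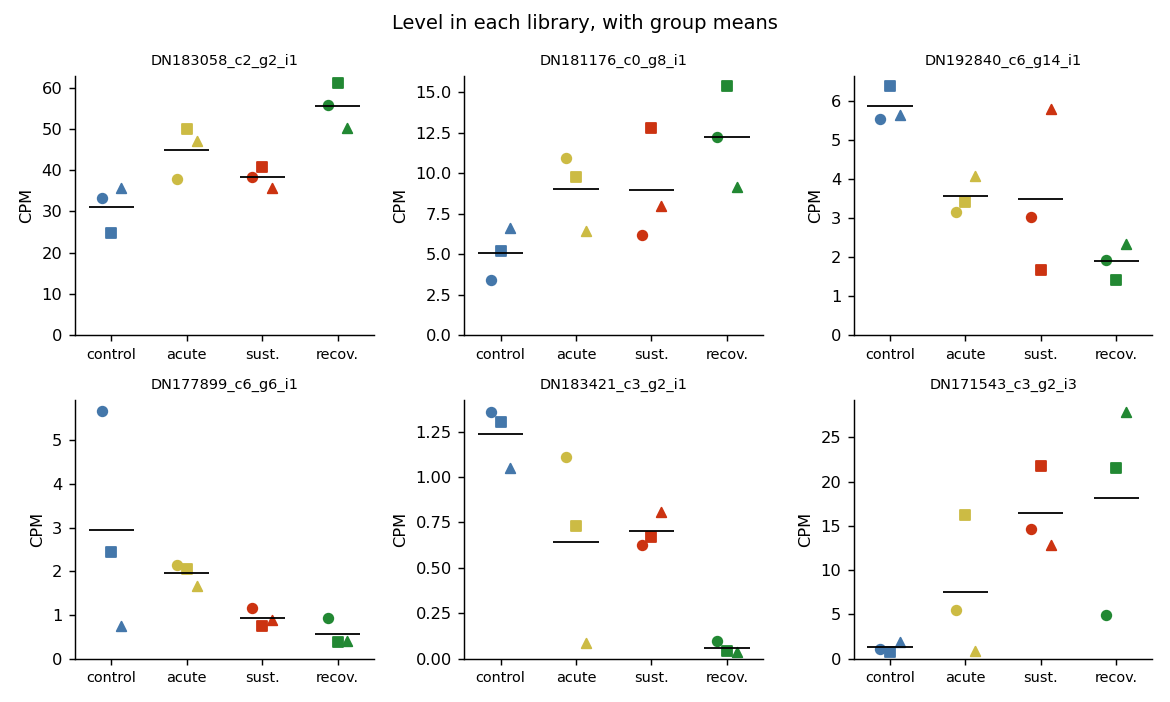
Each panel shows the level of 1 transcript in CPM in each library of the 4 groups, with circle, square and triangle for replicates 1, 2 and 3 and a black line at the group mean. The first 4 panels are the transcripts named by rule and the last 2 those singled out later; TRINITY_DN177899_c6_g6_i1 is the panel in which control and recovery libraries overlap.

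Of the 5 transcripts with the highest mean CPM, a ranking by reads and not per length, the first was TRINITY_DN157064_c6_g3_i1, described above. The next, TRINITY_DN190772_c7_g6_i3, was at 32900, 26700 and 36900 CPM in control libraries and 30600, 29300 and 22800 CPM in recovery libraries. The groups overlapped, with a log2 difference of -0.22 and a 95% interval from -0.55 to 0.11. TRINITY_DN171713_c5_g3_i1 and TRINITY_DN169471_c2_g2_i1 differed by -0.06 (interval -0.45 to 0.32) and 0.10 (interval -0.23 to 0.43) on the log2 scale. TRINITY_DN190198_c2_g1_i1 was at 11800, 9580 and 12000 CPM against 9410, 8640 and 7990 CPM. Every recovery library was below every control library, by a log2 difference of -0.36 with an interval from -0.69 to -0.03 (edgeR adjusted p = 1). For these 4 transcripts the intervals stayed within 2-fold. With control replicate 2 left out, the log2 differences were -0.34, -0.22, 0.05 and -0.46 in the order given.

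Some transcripts were high in 1 control and 1 recovery library and near 0 in the other 4. After adding 0.2 CPM, 45 transcripts were more than 10-fold above the other 4 libraries in both control replicate 2 and recovery replicate 2. They were chosen by those values, so their levels in the 6 libraries are a description. For the other 8 pairings of a control with a recovery library, the same count was 0 or 1. The 45 came from 37 Trinity genes in 32 components. Their median level was 16.7 CPM in control replicate 2 and 9.04 CPM in recovery replicate 2, and 0.0493 to 0.0798 CPM in the other 4 libraries. The choice did not use the acute and sustained libraries. There, 44 of the 45 exceeded the same 4 libraries more than 10-fold in acute replicate 3, 21 did in acute replicate 1, and 0 did in acute replicate 2 or in any sustained library. The median level was 18.2 CPM in acute replicate 3, 6.15 CPM in acute replicate 1 and 0.042 to 0.0913 CPM in the others.

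The member with the highest mean, TRINITY_DN171759_c1_g2_i1, had 0, 2346 and 1 counts in control animals and 1, 2085 and 4 in recovery animals. Acute libraries had 3482, 0 and 4272 counts and sustained libraries 0, 9 and 1. High libraries thus occurred in 3 of the 4 groups, each beside a library of the same group at or near 0. With all libraries the 45 transcripts had a median log2 difference of -0.635, with 15 above 0. When control replicate 2 was left out, all 45 were above 0 with a median of 5. Recovery replicate 2 was then the single high library of the pair of groups, so the choice of the 45 fixed this direction. The corresponding medians over all transcripts were 0.0193 and 0.0194. The members' identity was not tested, since no gene names were available.

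**Figure D5:**
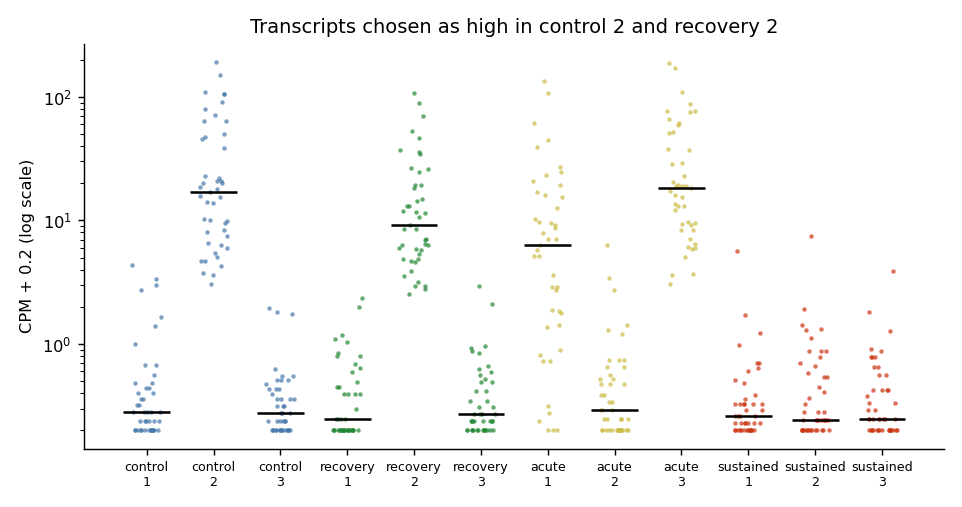
Each point is 1 of the 45 transcripts chosen as high in control replicate 2 and recovery replicate 2, with CPM plus 0.2 on a log scale for each of the 12 libraries and a black line at the median. Acute replicates 1 and 3, which the choice did not use, are also high, at medians of 6.15 and 18.2 CPM, and the remaining 8 libraries are at medians below 0.1 CPM.

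Presence and absence followed single libraries as well. A count of 0 in every control library with at least 10 in every recovery library was found for 0 transcripts, and the reverse for 0. A count of at least 100 in 1 of the 6 libraries and of 0 in another was found for 275 transcripts. The 0 was in control replicate 2 for 213 of them, and in each other library for 6 to 35, some in several. The level spanned more than 10-fold among the control libraries for 1236 transcripts (3.02%) and among the recovery libraries for 237 (0.579%). Control replicate 2 was the odd library for 1119 of the 1236, and recovery replicate 2 for 150 of the 237, being the high one in 134.

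The single transcript that DESeq2 called belonged to this kind. Its identifier was TRINITY_DN138463_c0_g1_i2, and it had 146, 0 and 292 counts in control animals and none in any recovery library. With a floor of 3 counts over the recovery group, its mean was at least 136-fold lower there, a bound that covers counting error only and takes no account of the 0 in control replicate 2. The DESeq2 adjusted p was 0.0014, and a quasi-likelihood fit of 5 libraries without control replicate 2 also called it (edgeR adjusted p = 0.034). With all libraries the quasi-likelihood test did not (adjusted p = 1). Nor did the fit that left out control replicate 2 but kept the acute and sustained libraries (edgeR unadjusted p = 0.06). Acute libraries had 231, 0 and 0 counts and sustained libraries 44, 0 and 0, so every group but recovery had both present and absent libraries. TRINITY_DN111727_c0_g1_i1 was the only other transcript of the table with counts in exactly the same 4 libraries. It had 51 and 92 counts in control replicates 1 and 3, 54 in acute replicate 1 and 11 in sustained replicate 1, which made the first transcript 2.86 to 4.28 times as frequent in each.

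Summing counts over the transcripts of an assembled gene did not uncover a difference. The test called 0 of 32886 Trinity genes, with 1029 (3.13%) at an unadjusted p under 0.05. Over 20356 components it called 0, with 615 (3.02%) under 0.05. With control replicate 2 left out, it called 0 of 33949 genes and 0 of 21104 components, with 923 and 626 at an unadjusted p under 0.05. No other tool was run on the summed counts.

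Whether animals used a different mix of transcripts of the same gene was asked for 6637 Trinity genes with 2 to 8 tested transcripts. Reads that match several transcripts of a gene may have been dropped or split by the counting, so these shares are uncertain. The edgeR test of transcript use called 0, with 232 (3.5%) at an unadjusted p under 0.05, and limma's test also called 0. Leaving out control replicate 2, it called 0 of 7040, with 175 at an unadjusted p under 0.05. The smallest p belonged to TRINITY_DN178326_c3_g6, which was singled out for that. Its transcript i3 held 14.3%, 8.33% and 16.4% of the gene's counts in the control libraries and 1.27%, 1.63% and 1.57% in recovery libraries. These were 24, 9 and 26 counts against 2, 3 and 3, and transcript i4 held a mean of 65.6% ± 1.42 (SD, n = 3) against 81.5% ± 7.04. The groups did not overlap in the share of i3, and the gene did not pass the edgeR test (adjusted p = 0.68, or 0.49 without control replicate 2). Without control replicate 3, the test called 1 gene, TRINITY_DN177928_c2_g1 (edgeR adjusted p = 0.043, and 1 with all libraries).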

How the data were processed

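RNA of whole adult copepods was made into stranded poly(A) libraries and sequenced as paired-end reads, per the labels' protocols. The authors deposited a table of unnormalised read counts, whole numbers per assembled transcript. Per the submitters' processing notes, tools included HTSeq 0.6.1, TopHat2 2.1.1, edgeR and Trim Galore 0.4.1, with no role or order. Assembly and counting options: not given in the sources used here.

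The main test was edgeR's quasi-likelihood test (edgeR 4.0.16, R 4.3.3, robust, TMM scaling, minimum count 10, minimum total 15, prior count 0.125) in one fit of all 12 libraries, with Benjamini-Hochberg adjustment over all transcripts tested and a threshold of 0.05. Standard errors (the fitted difference over the square root of F) and the 95% intervals built on them are approximate. Transcript use was tested with diffSpliceDGE. Alternatives were DESeq2 1.42.0, edgeR's exact test, limma 3.58.1, other scalings and filters, thinning to the smallest total, fewer libraries and leaving out each library. CPM was computed from the counts after TMM scaling, with factors from 0.634 to 1.32 in the 6 libraries, so CPM values need not have the same sum in each library. The tests were tested on simulated data. Plots were drawn with matplotlib 3.10.9.

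Replicates are vessels, numbered in order of deposit, and p-values reflect differences between vessels only. Chi-square per degree of freedom between libraries of a group was 12.5 to 38.2 (computed without TRINITY_DN157064_c6_g3_i1), so no pair agreed within sampling noise. Each library was used as the separate sample that the labels list. Comparisons, settings and the naming rule were chosen with earlier results of these data known. The rule took, on each side, the 2 transcripts with the smallest value of the larger p with and without control replicate 2, plus the 5 with the highest mean. Planned gene lists were not used here, because no gene names were available.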

Additional observations from a re-analysis of the deposited data

How the results depend on the processing

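The count of called transcripts was 0 with all libraries and 1 with DESeq2, 1 with edgeR's exact test and 1 in the fit of 5 libraries, and stayed at 0 under the other 14 settings. The count at an unadjusted p under 0.05, 1302 with all libraries, was 3549 with library totals alone, 678 with only the 6 libraries and 863 with only 5 of them, and ranged from 1186 without control replicate 2 to 2146 without control replicate 3. It stayed within 1.5 times under the other settings. Transcripts whose groups did not overlap numbered 2848 (6.96% of 40943), against 5813 (14.2%) without control replicate 2 and 5835 (14.3%) with library totals alone. Fewer libraries make separation easier. The test of transcript use called 0 to 1 genes when single libraries were left out. Causes of these shifts were not tested. Summed Trinity genes gave 0 calls under each of 8 settings, and the distance between groups and the difference in share of the most abundant transcript kept their direction under 2 and 6 settings.

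The 4 transcripts named by rule kept their direction under each of 17 settings and were called under 0 of them. They were chosen by their p-values in the same counts, with and without control replicate 2. A kept direction is therefore no independent support for them. Their log2 differences ranged from 0.35 to 0.94 for TRINITY_DN183058_c2_g2_i1, 0.71 to 1.52 for TRINITY_DN181176_c0_g8_i1, -2.04 to -1.45 for TRINITY_DN192840_c6_g14_i1 and -2.9 to -1.43 for TRINITY_DN177899_c6_g6_i1. No paired analysis was possible because replicate numbers follow the order of deposit. Intervals inside 2-fold were few at low levels (0.797% under 1 CPM and 39.3% from 1 to 10 CPM), and the part that depth has in this was not separated from the spread between vessels.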
